A study of Mus musculus with 46 samples.

Results

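The Hox genes encode homeodomain transcription factors. In the mouse they lie in 4 clusters, Hoxa on chromosome 6, Hoxb on chromosome 11, Hoxc on chromosome 15 and Hoxd on chromosome 2. Members were all genes named by a single symbol of these clusters in the array's probe annotation, each read by the probe set with the highest mean. There were 37 of 19938 genes: 10 of Hoxa (Hoxa2 to Hoxa7, Hoxa9, Hoxa10, Hoxa11 and Hoxa13), 9 of Hoxb (Hoxb1 to Hoxb7, Hoxb9 and Hoxb13), 9 of Hoxc (Hoxc4, Hoxc5, Hoxc6 and Hoxc8 to Hoxc13) and 9 of Hoxd (Hoxd1, Hoxd3, Hoxd4 and Hoxd8 to Hoxd13). Hoxb8 had no probe set of its own and was not analysed here.

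The data are 46 whole-transcript arrays, 1 for each of 2 cultures of 23 mouse cell lines. The induced multipotent germline stem cells (mGS) came from germline stem cells (GS) by lentivirus in 4 ways, with 3 lines each: p53 knockdown with Sox2 (Sox2 mGS), p53 knockdown with Oct4 (Oct4 mGS), knockdown of p53 and Dnmt1 (Dnmt mGS), and knockdown of p53 and Dmrt1 (Dmrt mGS). A further 2 mGS lines had arisen spontaneously in GS culture and carried no stated treatment. GS cells, cultured spermatogonial stem cells, gave 3 untreated lines. Induced pluripotent stem cells (iPS) gave 3 lines, reprogrammed by retroviruses that carried c-myc, Klf4, Oct4 and Sox2, and embryonic stem cells (ES) gave 3 untreated lines, R1, B6-6 and BRC1. The title and source of both R1 cultures say R1, but the description of culture 2 has R2 in its place, and the title was followed. Every line except ES carried the strain label DBA/2; GFP Tg. The ES lines came from a hybrid of 129 substrains, from C57BL/6J and from (B6xDBA2)x129, so strain and ES origin cannot be told apart. GS cells were grown in StemPro-34 medium with GDNF and bFGF, and all other lines in DMEM with serum and LIF, so medium and cell type cannot be told apart between GS and the rest. All lines grew on mouse embryonic fibroblast (MEF) feeders, which were depleted on gelatin plates before RNA was taken.

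Hox genes are switched on along the body axis in the order in which they lie in their cluster, and their combined expression marks position in the trunk, hindbrain and limbs. Low paralogue numbers mark anterior and high numbers posterior levels. In pluripotent cells the clusters are known to be held silent by Polycomb repressive complexes, and retinoic acid, Wnt and Cdx factors are known to open them. Fibroblasts taken from the trunk keep the Hox code of their body level in culture.

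A promoter sequence from RefSeq (GRCm38.p6) was at hand for 21 members, from 250 bases before to 50 after the start. The windows of Hoxb1, Hoxb4 and Hoxd8 are shown because Hoxb1 and Hoxb4 moved with the GS lines and Hoxd8 with the Sox2 mGS lines. Capitals mark matches, on either strand, to the motifs searched. These were AGGTCA, the core of retinoic acid receptor elements, TGATNNAT, a site type of Hox and Pbx proteins, the CCAAT box, the TATA box (letters TATAAA) and the octamer (letters ATGCAAAT).
Hoxb1 promoter, chr11:96365508-96365807, plus strand: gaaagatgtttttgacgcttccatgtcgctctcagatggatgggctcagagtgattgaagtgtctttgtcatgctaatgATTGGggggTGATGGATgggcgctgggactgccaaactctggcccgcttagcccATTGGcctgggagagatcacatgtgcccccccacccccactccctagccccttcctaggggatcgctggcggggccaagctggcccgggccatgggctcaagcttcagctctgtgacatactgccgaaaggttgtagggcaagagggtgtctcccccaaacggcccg
Hoxb4 promoter, chr11:96318017-96318316, plus strand: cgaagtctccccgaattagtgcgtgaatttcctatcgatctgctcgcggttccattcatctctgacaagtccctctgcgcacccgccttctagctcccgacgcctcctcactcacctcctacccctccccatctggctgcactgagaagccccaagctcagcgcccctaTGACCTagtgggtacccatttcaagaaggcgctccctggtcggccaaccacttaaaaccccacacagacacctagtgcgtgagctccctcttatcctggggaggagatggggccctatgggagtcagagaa
Hoxd8 promoter, chr2:74704365-74704664, plus strand: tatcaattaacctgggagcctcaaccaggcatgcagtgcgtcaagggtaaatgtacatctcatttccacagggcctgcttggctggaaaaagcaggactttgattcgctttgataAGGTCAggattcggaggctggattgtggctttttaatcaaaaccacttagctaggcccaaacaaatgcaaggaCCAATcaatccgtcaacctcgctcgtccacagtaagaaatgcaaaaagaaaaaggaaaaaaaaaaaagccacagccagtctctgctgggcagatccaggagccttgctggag
The Hoxb1 window held 1 match to TGATNNAT and 2 to CCAAT, 1 of these close before the TGATNNAT match and none overlapping it. The Hoxb4 window held 1 match to AGGTCA, and the Hoxd8 window 1 to AGGTCA and 1 to CCAAT. Over 32851 promoter windows of this length, AGGTCA was present in 16.3%, TGATNNAT in 8.85%, CCAAT in 37.4%, TATAAA in 13.6% and ATGCAAAT in 1.74%. These matches are letters in a window and not measured sites.

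Values are linear intensities. Each line is the geometric mean of its 2 cultures, and n is the number of lines. Array medians ran from 215.4 to 242.5, apart from culture 1 of Oct4 mGS 1 at 264.8. The background level, 161.1, was the 95th percentile of 1027 olfactory receptor genes, whose known place is the nose. Levels of different genes come from different probes and are not set against each other. The labelled cell types had their markers: the mean intensity of 8 spermatogonial genes was 4794 to 5923 in GS lines and 229 or less in every other line. That of 8 pluripotency genes was 149 to 193 in GS lines and 1055 or more in the others.

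Of the 37 Hox genes, 28 (75.7%) exceeded the background level in at least 1 line, against 74.7% of all genes. All 9 Hoxb genes did so, with 7 of 10 Hoxa, 6 of 9 Hoxc and 6 of 9 Hoxd genes. The 9 that stayed under it in all 23 lines were Hoxa2, Hoxa3, Hoxa11, Hoxc5, Hoxc10, Hoxc11, Hoxd4, Hoxd9 and Hoxd12, with 56.9 in Hoxa3 as their lowest and 159 in Hoxd4 as their highest line value. Across the 8 groups, 23 of the 37 passed limma's F-test at an adjusted p of 0.05, against 61.0% of all genes, so a difference somewhere among the groups was as frequent among Hox genes as among other genes. The heat map of the members by line shows where the large differences lay: the Hoxb block in GS lines, and Hoxc8, Hoxc6 and Hoxd8 in Sox2 mGS and Oct4 mGS lines.

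**Figure D1:**
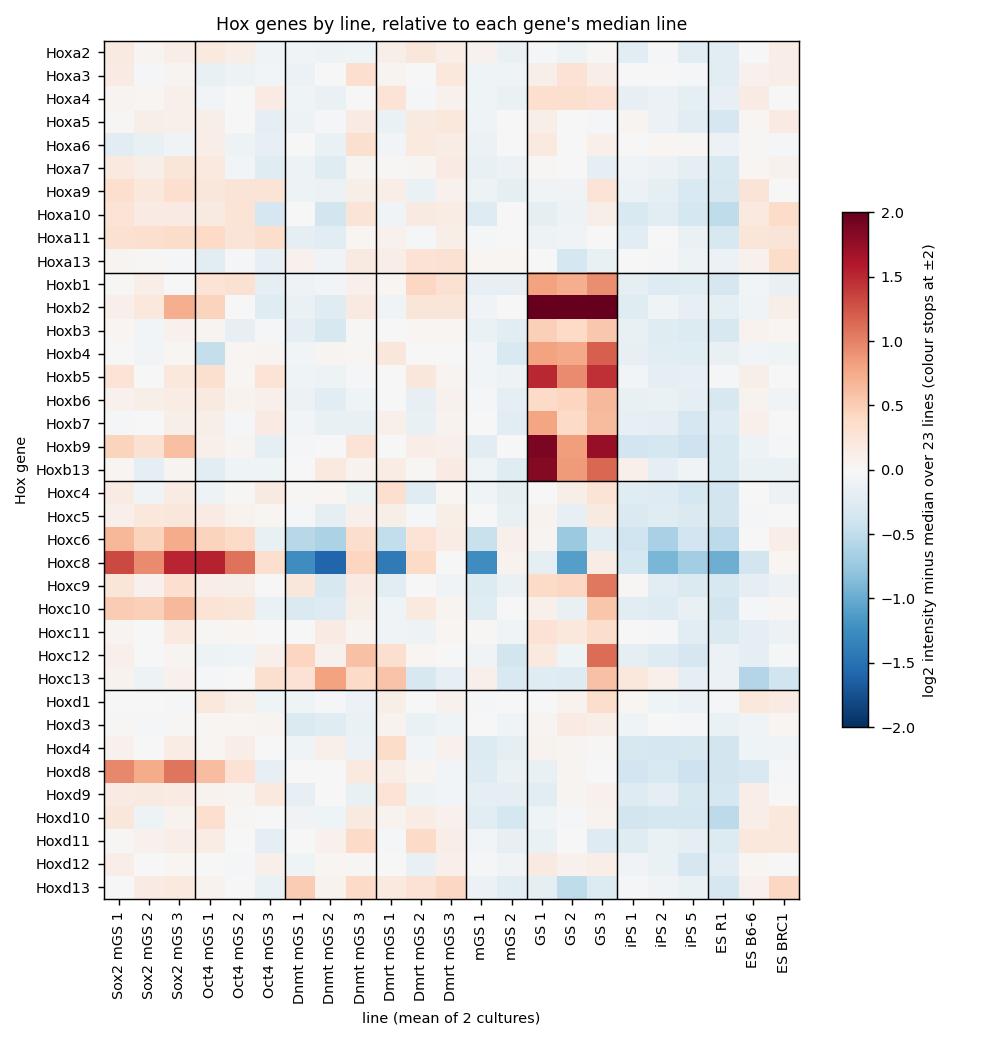
Each of the 37 Hox genes (rows, by cluster) in each of the 23 lines (columns, by group), as log2 intensity minus the gene's median over the lines. Colour stops at ±2. The 9 Hoxb rows are red in the 3 GS columns, and the rows with the widest spread elsewhere are Hoxc8, Hoxc6 and Hoxd8.

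The comparison of GS with iPS cells asks how the source cells of all mGS types differ from a pluripotent line of the same strain label. In GS lines, 17 of 37 Hox genes were higher than in iPS lines and 0 were lower, against 54.0% of all genes called, 35.5% higher and 18.5% lower. The 17 held all 9 Hoxb genes, with 1 of 10 Hoxa, 5 of 9 Hoxc and 2 of 9 Hoxd genes. The median log2 difference was 1.13 over the Hoxb genes, 0.12 over Hoxa, 0.37 over Hoxc and 0.22 over Hoxd, against 0.17 over all genes. The arrays are of bulk RNA, in which a change in the number of cells of a type and a change in RNA per cell cannot be told apart.

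Among the anterior Hoxb genes, Hoxb2, which patterns the hindbrain, moved by the widest margin. It read 3213, 1738 and 2715 in GS lines 1, 2 and 3, against 163, 181.5 and 172.5 in iPS lines 1, 2 and 5. Over all 20 lines outside GS it ran from 163 to 320, with a median of 188. Every GS line thus stood above every other line, and the other groups lay near the background level. The difference from iPS was 3.85 ± 0.21 log2 (SE, 14.4-fold, adjusted p = 9.9e-11).

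Hoxb1, a gene of hindbrain segment identity, read 281, 264.6 and 306 in GS lines, against 142, 134 and 135 in iPS lines. All 3 GS values lay above the highest of the other 20 lines (213), and the iPS values lay under the background level. The difference was 1.05 ± 0.12 (at least 1.76-fold, adjusted p = 8.9e-07). Hoxb3, active in the hindbrain and pharyngeal arches, read 1421, 1352 and 1485 in GS lines and 926, 865 and 851 in iPS lines. It was above background in all 23 lines, and its GS values lay above the 820 to 1091 of the other 20 lines (0.69 ± 0.10, adjusted p = 1.8e-05).

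Hoxb4, known for its part in expanding blood stem cells, read 199, 192 and 262 in GS lines, against 101.4, 98.0 and 97.0 in iPS lines. Hoxb5, a gene of enteric neural crest and blood stem cells, read 241, 163 and 232 in GS lines, against 80.9, 74.4 and 75.2 in iPS lines. Both were above the background level in the 3 GS lines and in 0 of the other 20, where the highest values were 134 for Hoxb4 and 105 for Hoxb5. The differences were 1.13 ± 0.13 for Hoxb4 (at least 1.34-fold, adjusted p = 1.1e-06) and 1.44 ± 0.12 for Hoxb5 (at least 1.29-fold, adjusted p = 2.7e-08). GS 2 read Hoxb5 barely above that level.

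Of the trunk genes Hoxb6, Hoxb7 and Hoxb9, the last, a gene of thoracic identity, differed most. Hoxb9 read 778, 375 and 704 in GS lines, against 162, 166 and 158 in iPS lines (1.87 ± 0.19, 3.64-fold, adjusted p = 2.4e-07). Hoxb6 read 250, 261 and 303 in GS lines and 174, 176 and 168 in iPS lines (0.65 ± 0.10). Hoxb7 read 433, 329 and 389 in GS lines and 225, 220 and 199 in iPS lines (0.83 ± 0.11). For each of these genes the lowest GS line was above the highest of the other 20 lines, at 318 for Hoxb9, 217 for Hoxb6 and 282 for Hoxb7.

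Hoxb13, the most posterior gene of the cluster and a known gene of the prostate and tail, read 724, 366 and 451 in GS lines. In iPS lines it read 217, 178 and 193, and the highest of the 20 lines outside GS was 231. The difference was 1.34 ± 0.17 (2.52-fold, adjusted p = 2.7e-06). GS 2 was the lowest GS line for Hoxb1, Hoxb2, Hoxb3, Hoxb4, Hoxb5, Hoxb7, Hoxb9 and Hoxb13, and stood above all other groups for each.

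**Figure D2:**
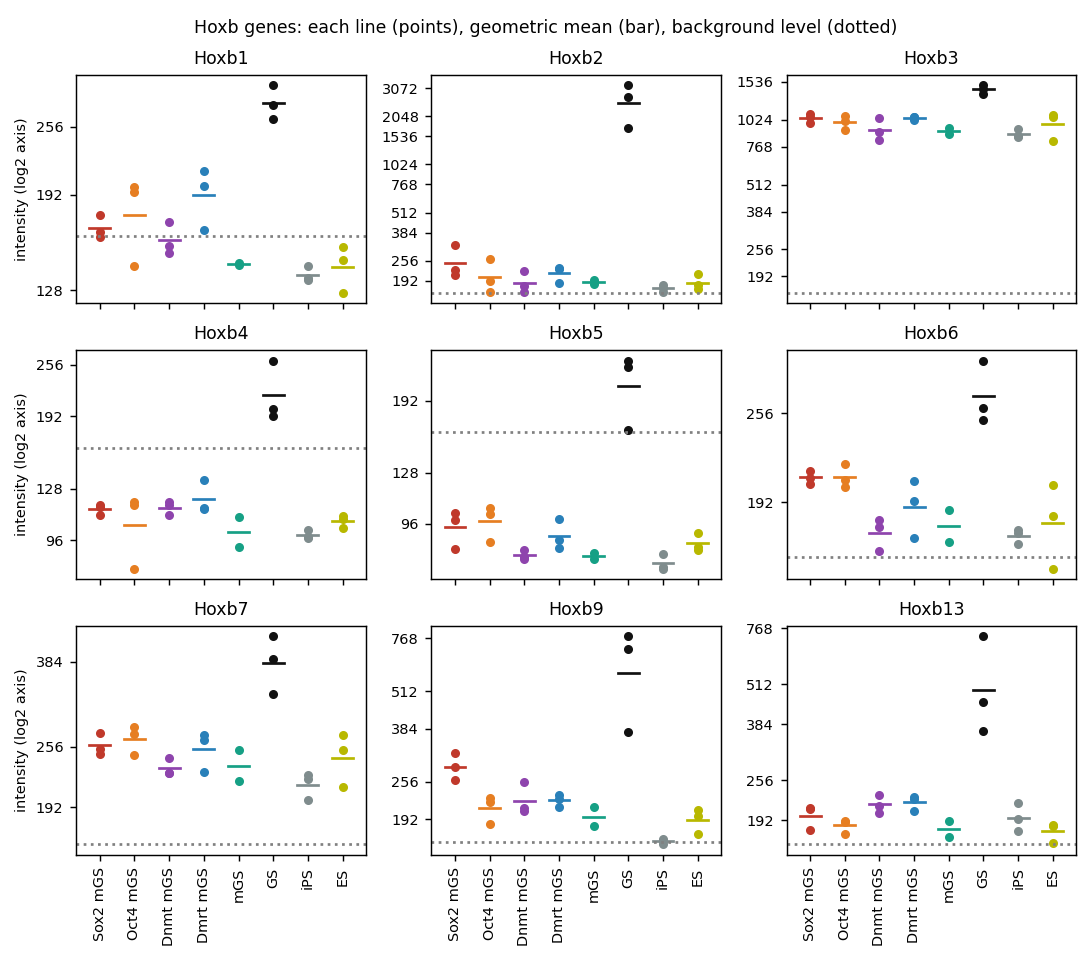
Intensity of the 9 Hoxb genes (log2 axes that do not start at 0) in every line, by group. Points are lines, bars are geometric means (n = 3 lines, mGS 2) and the dotted line is the background level of 161.1. In every panel the 3 GS points lie above all other points.

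Markers that could bring Hox RNA with other cells were read beside the Hoxb result. Of 25 fibroblast markers, 2 were higher in GS than in iPS lines and 0 lower, with a median of 0.22. The fibroblast score, their mean log2 intensity given back on the linear scale, was 633, 251 and 218 in GS lines 1 to 3, against 258, 302 and 361 in iPS lines. With this score in the fit, all 9 Hoxb calls were kept, and Hoxb2 differed by 3.83 ± 0.17. Of 9 markers of testis somatic cells, Sox9 alone was higher (534 in GS, 366 in iPS lines), and the score of the list was 139 to 148 in GS and 125 to 133 in iPS lines. The Leydig cell markers Star (123 in GS, 128 in iPS lines) and Cyp11a1 (62.9 in GS, 77.4 in iPS lines) and the Sertoli cell marker Amh (108 in GS, 98.3 in iPS lines) had means under the background level. Wt1, which Sertoli cells and other tissues express, was well above it (854, 548 and 341 in GS lines, 363.5, 299 and 447.5 in iPS lines), overlapped between the groups and did not pass (0.57 ± 0.71, adjusted p = 0.51). Gata1 (184 in GS, 202 in iPS lines) was also above the background level and did not pass. Of 9 primitive streak and mesoderm markers 4 were higher and 0 lower (median 0.19). These were Foxf1 (12270 in GS, 214 in iPS lines), Lhx1 (794 in GS, 124 in iPS lines), and Kdr and Tbx6, both with means under the background level. The score was 281 to 369 in GS and 162 to 189 in iPS lines. Of 9 neural markers 2 were higher, among them Zic1 (9201 in GS, 135 in iPS lines), and 4 lower. Their score was 262 to 297 in GS and 196 to 221 in iPS lines. The part of these lists in the result was not tested.

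Outside the Hoxb cluster the GS differences from iPS were small or dim. Hoxa4, a gene of the neck vertebrae, read 444, 438 and 430 in GS lines, against 313, 325 and 308 in iPS lines (0.47 ± 0.09, adjusted p = 2.2e-04). Hoxc9, which marks thoracic motor neurons, read 190, 194 and 303 in GS lines, against 148, 124 and 119 in iPS lines (0.78 ± 0.16, at least 1.39-fold, adjusted p = 5.4e-04). For neither gene did GS and iPS lines overlap. Hoxc12 read 121, 99.1 and 228 in GS lines and 91.6, 88.3 and 83.2 in iPS lines, so that only GS 3 was above background. Its difference of 0.67 ± 0.21 (adjusted p = 0.011) fell to 0.32 (adjusted p = 0.074) without GS 3. Hoxc4, Hoxc5, Hoxc11, Hoxd4 and Hoxd12 had both group means under the background level, and the Hoxc4 call was lost without GS 3 (0.34, adjusted p = 0.061).

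**Figure D3:**
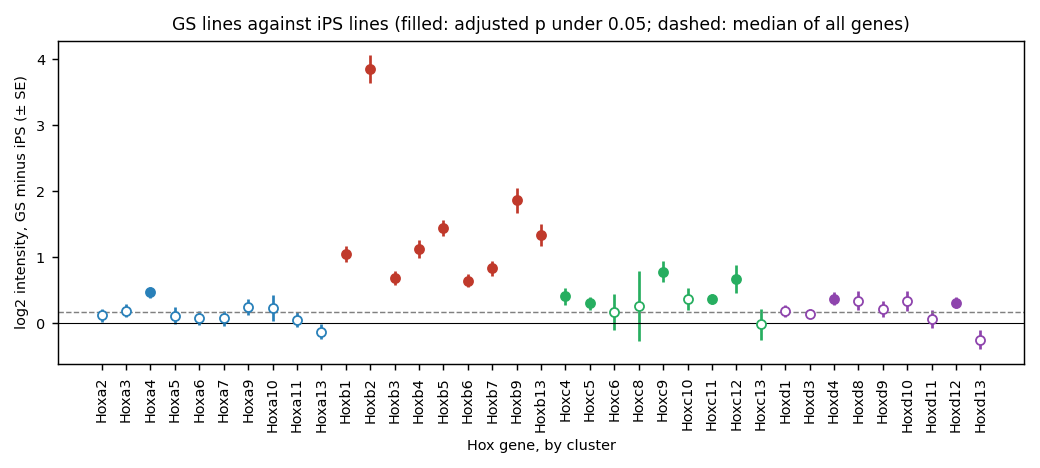
Log2 intensity of GS minus iPS lines for the 37 Hox genes, by cluster, with SE (n = 3 lines per group). Filled points passed an adjusted p of 0.05 and the dashed line is the median of all genes, 0.17. The 9 Hoxb points are all filled, and Hoxb2 is at 3.85.

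The mGS types were set against GS cells to see what became of the Hox genes once the cells had changed state. These comparisons share the GS lines with each other and with the one above. All 9 Hoxb genes were lower in each of the 5 mGS types than in GS. In Sox2 mGS 16 of 37 Hox genes were called, 5 higher and 11 lower, against 44.0% of all genes called, 19.4% higher and 24.6% lower. Oct4 mGS had 15 calls, 2 higher and 13 lower, against 42.9%, 20.2% higher and 22.6% lower. Dnmt mGS had 14 calls, 1 higher and 13 lower, against 49.1%, 19.1% higher and 30.0% lower. Dmrt mGS had 13 calls, 2 higher and 11 lower, against 41.6%, 17.6% higher and 24.1% lower. Spontaneous mGS had 13 calls, 0 higher and 13 lower, against 43.1%, 16.2% higher and 26.9% lower. The share of Hox genes called was thus at or below that of all genes in each type, and the calls that were lower held all 9 Hoxb genes measured.

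Hoxb2 averaged 246 in Sox2 mGS, 202 in Oct4 mGS, 185 in Dnmt mGS, 213 in Dmrt mGS and 189 in spontaneous mGS, against 2475 in GS. The log2 difference from GS was -3.33 ± 0.21 for Sox2 mGS, -3.62 ± 0.21 for Oct4 mGS, -3.74 ± 0.21 for Dnmt mGS, -3.54 ± 0.21 for Dmrt mGS and -3.71 ± 0.23 for spontaneous mGS. All 14 mGS lines of the 5 types lay between 163 and 320. Sox2 mGS 3 was the highest of them and Oct4 mGS 1, at 263, the next.

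Hoxb9 averaged 287 in Sox2 mGS, 209 in Oct4 mGS, 221 in Dnmt mGS, 222 in Dmrt mGS and 195.5 in spontaneous mGS, against 590 in GS. The log2 difference was -1.04 ± 0.19 in Sox2 mGS and -1.41 ± 0.19 in Dnmt mGS. Hoxb5 averaged 94.0 in Sox2 mGS, 97.3 in Oct4 mGS, 80.2 in Dnmt mGS, 89.5 in Dmrt mGS and 80.0 in spontaneous mGS, against 209 in GS. Hoxb5 was thus under the background level in all 14 mGS lines, as was Hoxb4, and GS was at least 1.29-fold higher in Hoxb5.

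The median change over the Hoxb genes was -0.92 in Sox2 mGS, -1.05 in Oct4 mGS, -0.91 in Dnmt mGS, -0.84 in Dmrt mGS and -1.10 in spontaneous mGS, where that of all genes lay between -0.13 and -0.04. Counting GS against iPS, these were 54 Hoxb results, and all 54 kept direction and call under each alternative that tested them (1710 values). The highest adjusted p among these alternatives was 0.035, in Oct4 mGS. The fibroblast score in the fit was among them, and 1242 of the values came from leaving out 1 of the 23 lines. A left-out line of neither compared group leaves the difference unchanged and can alter only its error and adjusted p. Averaging probe sets could not move a difference, since each Hoxb gene had a single probe set.

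In the other clusters the mGS types went several ways. Hoxd13, a gene of digits and the posterior limb, read 474, 531 and 546 in Sox2 mGS lines, 671, 497 and 617 in Dnmt mGS lines, and 542, 580 and 633 in Dmrt mGS lines. The GS lines read 416, 334 and 393. None of these mGS lines overlapped GS. The difference was 0.44 ± 0.15 in Sox2 mGS (adjusted p = 0.020) and 0.64 ± 0.15 in Dnmt mGS (adjusted p = 0.0016). That of Dmrt mGS was 0.62 ± 0.15 (adjusted p = 0.0021). The Sox2 mGS call was lost without GS 2 (0.35, adjusted p = 0.10), Sox2 mGS 2 (0.42, adjusted p = 0.057) or Sox2 mGS 3 (0.40, adjusted p = 0.069), and with the fibroblast score in the fit (0.20, adjusted p = 0.40). Hoxa13, its paralogue of limb and genital tissue, averaged 204 in Dmrt mGS and 153 in GS (0.41 ± 0.11, at least 1.26-fold, adjusted p = 0.0051). Hoxd3 averaged 381 in Dnmt mGS and 481 in GS (-0.34 ± 0.07, adjusted p = 5.6e-04), with no overlap of lines.

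Hoxa4 averaged 367 in Sox2 mGS, 361 in Oct4 mGS, 334.5 in Dnmt mGS and 325 in spontaneous mGS, against 437 in GS, and was lower in all 4. In Sox2 mGS and Oct4 mGS its differences, -0.25 ± 0.09 and -0.28 ± 0.09, were lost without single lines: GS 1 (-0.24), GS 2 (-0.25), Sox2 mGS 1 (-0.25) or Sox2 mGS 2 (-0.24) in Sox2 mGS, and Oct4 mGS 1 (-0.23) or Oct4 mGS 2 (-0.26) in Oct4 mGS. Hoxc9 averaged 153 in Oct4 mGS, 148 in Dnmt mGS, 136 in Dmrt mGS and 126 in spontaneous mGS, against 224 in GS, and was lower in all 4. The fall rested in part on GS 3: without it the difference was -0.32 in Oct4 mGS (adjusted p = 0.084) and -0.38 in Dnmt mGS (adjusted p = 0.042), against -0.54 and -0.60 with it. In Sox2 mGS and Oct4 mGS, Hoxc8 was higher than in GS, and its lines are given below with the iPS comparisons.

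Among pluripotent lines with no p53 knockdown the Hox genes did not differ detectably. Between iPS and ES lines 0 of 37 passed limma's adjusted p, against 0.627% of all genes (0.291% higher and 0.336% lower in iPS), and 0 had an unadjusted p under 0.05. The differences ran from -0.35 to 0.41 log2. Without ES R1, 2 passed, both lower in iPS, and the share of all genes in that fit was not counted. Between spontaneous mGS and iPS lines 0 of 37 passed, as did 0 of all 19938 genes, and 0 Hox genes had an unadjusted p under 0.05. The differences ran from -0.15 to 0.30. No tool other than limma was run.

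The knockdown types had few or no calls against iPS. Counts at an unadjusted p under 0.05 are also given, for the Hox genes only. The share of all genes was not counted at that level or in fits that left out a line. These counts thus do not set Hox genes apart from other genes. Dnmt mGS had 0 of 37 called against iPS, where 6.87% of all genes were called (4.18% higher and 2.68% lower), and 10 had an unadjusted p under 0.05, 9 of them higher. The count of called genes was 2 without ES R1 or GS 2, and 1 without GS 3, Dmrt mGS 1, Oct4 mGS 1 or Oct4 mGS 3. Dmrt mGS had 1 of 37 called against iPS, against 0.848% of all genes (0.356% higher and 0.492% lower). This was Hoxd4, which averaged 136 in Dmrt mGS and 98.5 in iPS lines, both under the background level. At an unadjusted p under 0.05 there were 16 of 37 in Dmrt mGS, all 16 higher, and the median over the 37 was 0.26 against 0.08 over all genes. The Hoxd4 call was lost without iPS 1, 2 or 5, GS 2, Dmrt mGS 1 or Dmrt mGS 3 (0.35 to 0.48, against 0.46 with all lines), and without ES R1 or Oct4 mGS 3 the count was 3 and 2.

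The lines made with Sox2 or Oct4 were set against iPS to ask which Hox genes differ between these routes and iPS cells. Sox2 mGS had 13 of 37 Hox genes higher than iPS and 0 lower, against 23.6% of all genes called, 14.4% higher and 9.22% lower. Oct4 mGS had 8 higher and 0 lower, against 13.8% of all genes called, 10.4% higher and 3.43% lower. At an unadjusted p under 0.05 there were 25 of 37 in Sox2 mGS and 17 of 37 in Oct4 mGS, all higher, beside 16 of 37 in Dmrt mGS. The medians over the 37 were 0.29 in Sox2 mGS, 0.24 in Oct4 mGS and 0.26 in Dmrt mGS. The counts of calls alone thus do not set Oct4 mGS apart from Dmrt mGS in Hox genes. Of these calls, 8 of the 13 and 4 of the 8 were of genes with both group means under the background level. The Sox2 mGS genes with 1 mean above it were Hoxa9, Hoxb9, Hoxc6, Hoxc8 and Hoxd8, and the Oct4 mGS genes were Hoxa9, Hoxb1, Hoxc8 and Hoxd8. Hoxc4 and Hoxd10 also passed: Hoxc4 averaged 140 in Sox2 mGS and 108.5 in iPS lines, and Hoxd10 157.5 in Oct4 mGS and 113 in iPS lines. The Hoxc4 call was lost in 12 of 23 fits that left out 1 line, and that of Hoxd10 in 8 in Oct4 mGS and in 16 in Sox2 mGS. Both genes also lost these calls under quantile normalization (Hoxc4 0.22, Hoxd10 0.31 in Oct4 mGS and 0.27 in Sox2 mGS), with centred arrays and with the line as a random block. Both comparisons share the iPS lines.

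Hoxc8, a gene of the lower trunk and of the spinal motor neurons that serve the forelimb, read 475, 368 and 546 in Sox2 mGS lines and 553, 404 and 240 in Oct4 mGS lines. Lines iPS 1 and iPS 5 read 150 and 118, and the cultures of iPS 2 read 106 and 95.8. Each Sox2 mGS and Oct4 mGS line stood above every iPS line, and Oct4 mGS 3 was the lowest of the 6. The differences were 1.91 ± 0.53 in Sox2 mGS (at least 2.84-fold, adjusted p = 0.016) and 1.64 ± 0.53 in Oct4 mGS (at least 2.34-fold, adjusted p = 0.048). In the 17 lines outside these groups Hoxc8 ran from 63.5 to 257. Its wide error comes from the spread of lines within every group, Sox2 mGS and Oct4 mGS included. The Sox2 mGS call was lost without iPS 2 (1.78, adjusted p = 0.057) or Sox2 mGS 3 (1.79, adjusted p = 0.064). The Oct4 mGS call was lost in 14 of the 23 fits that left out 1 line, among them those without Oct4 mGS 1 (1.36, adjusted p = 0.16) and iPS 5 (1.61, adjusted p = 0.11).

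Against GS, with lines of 166, 88.6 and 212, Hoxc8 was higher by 1.65 ± 0.53 in Sox2 mGS (adjusted p = 0.017) and by 1.37 ± 0.53 in Oct4 mGS (adjusted p = 0.046). These calls were lost without GS 2, at 1.28 (adjusted p = 0.094) and 1.00 (adjusted p = 0.19). With the fibroblast score in the fit the differences from GS were 0.16 in Sox2 mGS (adjusted p = 0.78) and 0.36 in Oct4 mGS (adjusted p = 0.40). Of the 25 fibroblast markers, 18 were higher in Sox2 mGS than in GS (median 2.24) and 5 higher and 1 lower in Oct4 mGS (median 1.48). The call in Oct4 mGS was lost in 12 of 23 fits that left out 1 line, and that in Sox2 mGS also without Sox2 mGS 3 (1.52, adjusted p = 0.059).

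Hoxc6, a gene of thoracic identity, read 240, 206 and 254 in Sox2 mGS lines, against 114, 96.0 and 117 in iPS lines. All 3 Sox2 mGS lines were above the background level and all 3 iPS lines under it (1.10 ± 0.27, at least 1.44-fold, adjusted p = 0.0093). Against GS (158, 90.2 and 129) the difference was 0.92 ± 0.27 (adjusted p = 0.010), 0.70 (adjusted p = 0.069) without GS 2 and 0.12 (adjusted p = 0.63) with the fibroblast score in the fit. The Oct4 mGS lines read 205, 198 and 137, a group that did not pass the test against iPS.

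Hoxd8, a Hoxd gene of the trunk, read 267, 229 and 288 in Sox2 mGS lines and 209, 167 and 122 in Oct4 mGS lines, against 105, 110 and 103 in iPS lines. In the 17 lines outside Sox2 mGS and Oct4 mGS it ran from 103 to 157, never above the background level. All Sox2 mGS lines stood above it, and Oct4 mGS 3 stayed under it. The difference from iPS was 1.30 ± 0.15 in Sox2 mGS (at least 1.61-fold, adjusted p = 5.6e-05), and 1.22 to 1.39 with any 1 line left out. In Oct4 mGS it was 0.61 ± 0.15 (adjusted p = 0.014), and 0.43 (adjusted p = 0.069) without Oct4 mGS 1. Against GS, Sox2 mGS differed by 0.95 ± 0.15 (adjusted p = 3.3e-05).

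Hoxb9, which was high in GS, was also higher in Sox2 mGS (286, 260 and 318) than in iPS lines (162, 166 and 158), by 0.83 ± 0.19 (1.77-fold, adjusted p = 0.0055). Hoxa9, a posterior gene of blood progenitors, averaged 380 in Sox2 mGS and 370 in Oct4 mGS, against 268.5 in iPS. Its differences were 0.50 ± 0.12 in Sox2 mGS (adjusted p = 0.0091) and 0.46 ± 0.12 in Oct4 mGS (adjusted p = 0.025). The Oct4 mGS call was lost without iPS 2 (0.47), iPS 5 (0.41), Oct4 mGS 1 (0.47) or Oct4 mGS 2 (0.46). Hoxb1 averaged 176 in Oct4 mGS and 137 in iPS (0.36 ± 0.12, at least 1.09-fold, adjusted p = 0.049), and its call was lost without most single lines, among them Oct4 mGS 2 (0.28, adjusted p = 0.17). Its Oct4 mGS lines read 194, 198 and 142, and the Dmrt mGS lines, which were not called, read 165.5, 213 and 199.

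How firmly these counts stand depends on scaling. The share of all genes called was not counted in the alternative fits given here. The median difference of all genes was 0.10 in Sox2 mGS and 0.12 in Oct4 mGS against iPS, and quantile normalization put it at -0.01 and 0.01. Under that normalization all 8 Oct4 mGS calls were lost, with those of Hoxa9, Hoxb1, Hoxc8 and Hoxd8 among them, and 5 of the 13 Sox2 mGS calls. With each array centred on its median, 6 Hox genes were higher and 1 lower in Sox2 mGS, and 1 was called in Oct4 mGS. Without culture 1 of Oct4 mGS 1, the array with the highest median, 6 Hox genes were called in Oct4 mGS. The Oct4 mGS count was 0 without Oct4 mGS 1, 1 without iPS 5, 2 without iPS 1, iPS 2 or Oct4 mGS 2, and 5 without Dmrt mGS 3 or Sox2 mGS 3. That of Sox2 mGS was 8 without Sox2 mGS 3.

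The fibroblast signal was read in each line, since all had grown on feeders. The score was 1586, 1179 and 1684 in Sox2 mGS lines and 1303, 1027 and 560 in Oct4 mGS lines. Dnmt mGS lines had 346, 190 and 1161, Dmrt mGS lines had 190, 900 and 761, and spontaneous mGS lines had 250 and 781. In iPS lines it was 258, 302 and 361, and in ES lines 321, 743 and 960. Lines of 1 group thus differed as widely as groups did. Of the 25 markers, 17 were higher in Sox2 mGS than in iPS lines and 5 in Oct4 mGS, with 0 lower in either and medians of 2.31 and 1.65. Other marker lists moved in these comparisons too. In Sox2 mGS 4 of 9 neural and 2 of 9 primitive streak and mesoderm markers were higher than in iPS, and 4 of 8 pluripotency genes were lower (median -1.28). In Oct4 mGS 3 of 9 neural and 2 of 9 primitive streak and mesoderm markers were higher, and 1 of 8 pluripotency genes was lower (median -0.77). The pluripotency score was 2146, 1055 and 1285 in Sox2 mGS lines and 1662, 1255 and 3306 in Oct4 mGS lines, against 3776, 3590 and 2816 in iPS lines. The part of these lists in the Hox results was not tested.

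Within groups, 9 Hox genes followed the score across lines: 8 rose with it and 1 fell, against 16.8% of all genes, 9.20% that rose and 7.62% that fell. Hoxc8 rose by 0.68 ± 0.10 log2 for each log2 unit of the score (adjusted p = 1.0e-04) and Hoxc6 by 0.37 ± 0.04 (adjusted p = 7.5e-06). The line with the highest score was also the highest in Hoxc6 in 8 of 8 groups, and in Hoxc8 in 6 of 8. The exceptions for Hoxc8 were iPS and GS, the groups its differences were measured against. There the line with the lowest score was the highest in Hoxc8 (iPS 1 at 150 and GS 3 at 212). Across the 23 lines, less the group means, the correlation with the score was 0.92 for Hoxc6 and 0.86 for Hoxc8, as a description of lines that share arrays and scaling.

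The Dnmt mGS lines show this inside a group. Hoxc8 read 80.4, 63.5 and 257 and Hoxc6 read 103, 97.9 and 193 in Dnmt mGS lines 1 to 3, whose scores were 346, 190 and 1161. In the Dmrt mGS lines, with scores of 190, 900 and 761, Hoxc8 read 71.7, 249 and 191 and Hoxc6 read 108, 182 and 168. The order of the lines was the same for the score and for both genes.

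The other slopes were shallower. Over the 23 lines Hoxa5 ran from 138 to 201, Hoxa6 from 164 to 239, Hoxa7 from 284 to 414, Hoxa10 from 112 to 205, Hoxd11 from 114 to 178.5 and Hoxc13 from 95.2 to 249.9. Hoxa6 and Hoxa7 were above the background level in all 23 lines, and Hoxd11 in 2. Hoxa10, a gene of the lumbar spine and uterus, rose by 0.19 ± 0.05, Hoxa5 by 0.13 ± 0.03, Hoxa6 by 0.13 ± 0.03, Hoxa7 by 0.11 ± 0.03 and Hoxd11 by 0.13 ± 0.04. Hoxb2 rose by 0.20 ± 0.06 (adjusted p = 0.033), a small slope beside its GS difference. Hoxc13, a gene of hair and nails, fell by 0.26 ± 0.06. The count was 5 without Dnmt mGS 3 or Dmrt mGS 1. Of the 23 fits that left out 1 line, the slopes of Hoxb2 and Hoxd11 lost their call in 6 each, that of Hoxa7 in 4, that of Hoxa10 in 2 and those of Hoxa5 and Hoxc13 in 1 each (Dmrt mGS 1). In these fits the slope ran from 0.17 to 0.21 for Hoxb2, from 0.10 to 0.15 for Hoxd11 and from 0.15 to 0.24 for Hoxa10. Hoxd8, at 0.07 ± 0.05 (adjusted p = 0.35), did not pass. The line with the highest score was also the highest in Hoxd8 in 5 of 8 groups. In Sox2 mGS and Oct4 mGS, the only groups with Hoxd8 above the background level, the order of the lines was the same for the score and for Hoxd8. The slope inside these groups alone was not tested.

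Between the 2 cultures of a line the score differed little, by -0.47 to 0.40 log2. Hoxc8 alone of the 37 passed, at 0.95 ± 0.23 per log2 unit (adjusted p = 0.015), against 3.09% of all genes, 3.00% that rose and 0.0903% that fell. Without iPS 5, the line with the widest gap between cultures, it was 0.91 (adjusted p = 0.13). In iPS 5 the score was 306 in culture 1 and 425 in culture 2, and Hoxc8 read 99.7 and 139. Hoxc6 was at 0.81 ± 0.26 and did not pass (adjusted p = 0.10).

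**Figure D4:**
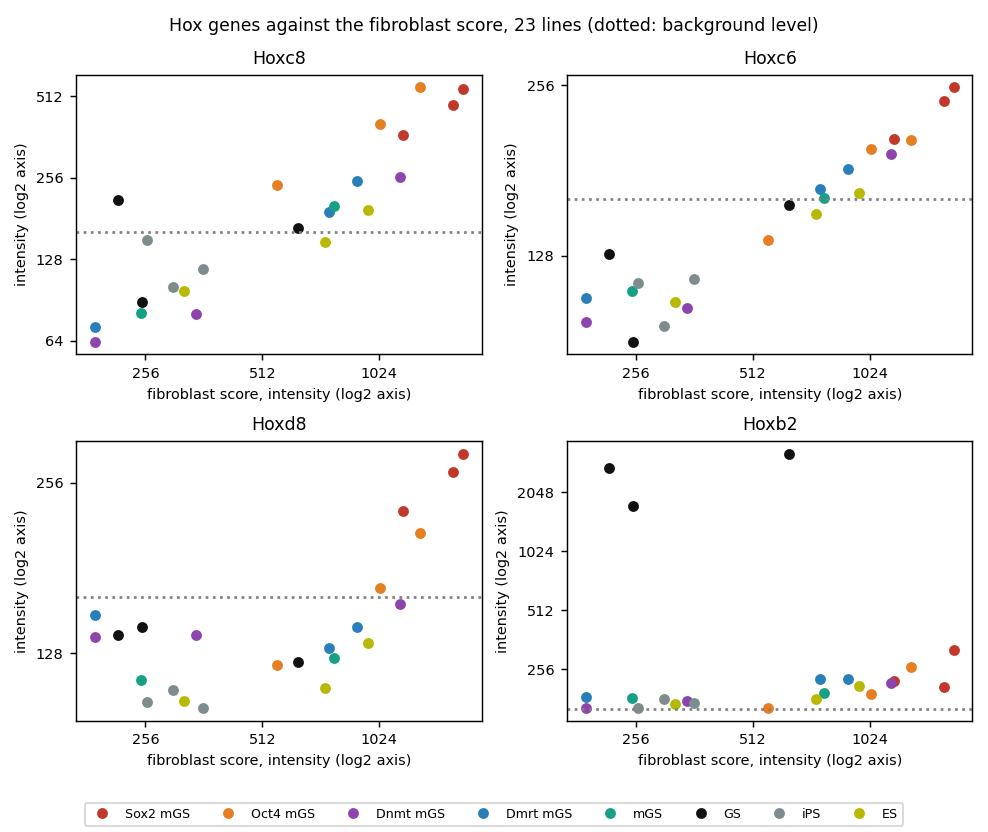
Intensity of Hoxc8, Hoxc6, Hoxd8 and Hoxb2 against the fibroblast score, both on log2 axes that do not start at 0, for the 23 lines, coloured by group. The dotted line is the background level of 161.1. Hoxc8 and Hoxc6 climb with the score within groups, Hoxd8 exceeds the background level in 5 lines of Sox2 mGS and Oct4 mGS, and Hoxb2 is high in GS lines at any score.

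With the score in the fit, the Hox genes of the Sox2 mGS and Oct4 mGS comparisons divided. Hoxc8 differed from iPS by 0.36 in Sox2 mGS (adjusted p = 0.48) and by 0.56 in Oct4 mGS (adjusted p = 0.22), and Hoxc6 by 0.25 in Sox2 mGS (adjusted p = 0.26). Hoxb9 (0.49, adjusted p = 0.12) and Hoxa9 (0.47, adjusted p = 0.063) also lost their calls in Sox2 mGS. In Oct4 mGS 3 of the 8 calls were kept, those of Hoxa9 (0.44, adjusted p = 0.050), Hoxd4 and Hoxd8. Those of Hoxa11, Hoxb1 (0.21, adjusted p = 0.20), Hoxc5, Hoxc8 and Hoxd10 (0.32, adjusted p = 0.15) were lost. Hoxd8 kept its call, at 1.13 ± 0.18 in Sox2 mGS (adjusted p = 0.0018) and 0.50 ± 0.16 in Oct4 mGS (adjusted p = 0.046). In Sox2 mGS 4 Hox genes were then higher (Hoxc4, Hoxd4, Hoxd8 and Hoxd9) and Hoxa6 was lower by 0.45 ± 0.09 (adjusted p = 0.0066). The Sox2 mGS scores of 1179 to 1684 lie above the 258 to 361 of the iPS lines with no overlap, so this fit rests on the slope from the other lines, and score and group cannot be fully told apart.

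**Figure D5:**
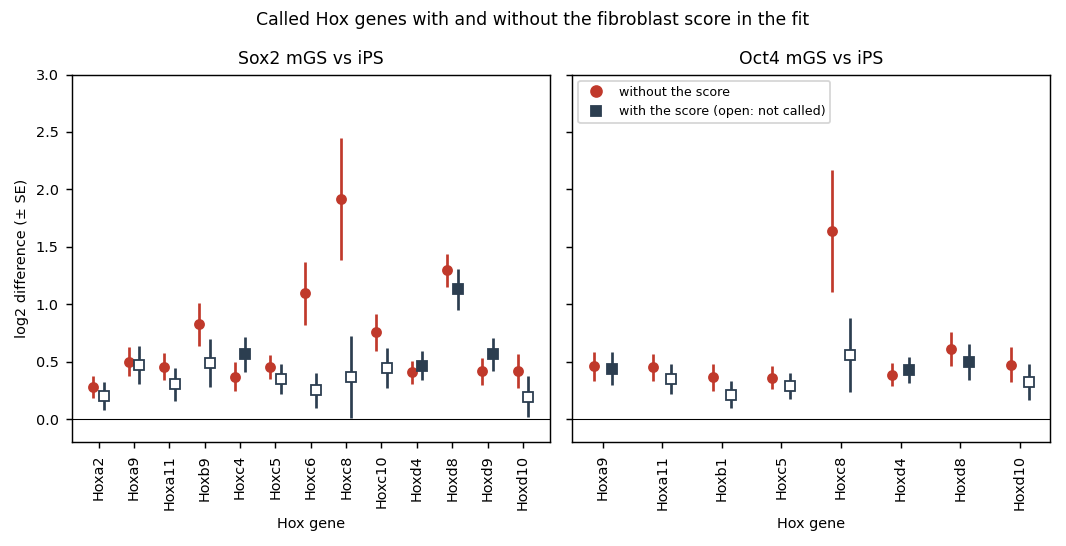
Log2 difference with SE of the Hox genes called in Sox2 mGS (left, 13 genes) and Oct4 mGS (right, 8 genes) against iPS lines. Red circles are without and dark squares with the fibroblast score in the fit, open squares where the adjusted p was 0.05 or more. Hoxc8 in Sox2 mGS moves to 0.36 from 1.91, and Hoxd8 stays at 1.13 beside 1.30.

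The known partners and regulators of Hox genes were read beside the Hox genes. Of 8 Hox cofactors, TALE homeodomain proteins that bind DNA with Hox proteins, 5 were higher in Sox2 mGS than in iPS lines and 0 lower. Meis2 averaged 354 in Sox2 mGS and 112 in iPS lines (1.66 ± 0.43), Meis1 257 in Sox2 mGS and 131 in iPS lines (0.97 ± 0.21), and Pbx3 2023 in Sox2 mGS and 950 in iPS lines (1.09 ± 0.35). Oct4 mGS had 2 of 8 higher, Pbx3 (2050 in Oct4 mGS, 950 in iPS lines) and Meis3 (235 in Oct4 mGS, 156 in iPS lines). In GS, 2 of 8 were higher (Pbx2 and Pknox1) and 2 lower (Pbx3 and Pknox2).

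Of 22 Polycomb and trithorax genes, 8 were higher and 11 lower in GS than in iPS lines. The higher ones held Bmi1, a Polycomb repressive complex 1 subunit (1457 in GS, 285 in iPS lines, 2.36 ± 0.23), Cbx2 (2119 in GS, 678 in iPS lines) and Kmt2a, a trithorax methyltransferase that keeps Hox genes active (2253 in GS, 1099 in iPS lines). The lower ones held Cbx7 (538.5 in GS, 1655 in iPS lines, -1.62 ± 0.12), Phc1 (1582 in GS, 4160 in iPS lines) and Ezh2, the main H3K27 methyltransferase (2105 in GS, 4206 in iPS lines). Among 16 Hox inducers and retinoic acid genes, 3 were higher and 1 lower in GS. Aldh1a2, which makes retinoic acid, averaged 442 in GS and 139 in iPS lines (1.67 ± 0.20, at least 2.74-fold). Their part in the Hoxb result was not tested.

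The genes next to or inside the clusters went several ways. Of 19 such genes, 5 were higher (Evx1, Hottip, Mir196b, Skap1 and Mtx2) and 2 lower (Hibadh and Lnpk) in GS than in iPS lines, with a median of 0.07. Beside the Hoxb cluster, Skap1 was higher in GS than in iPS lines (144 in GS, 110 in iPS lines, 0.39 ± 0.07, adjusted p = 1.4e-04), with no overlap of lines and both means under the background level. It was also lower than in GS in all 5 mGS types, by -0.45 in Sox2 mGS to -0.36 in Oct4 mGS. Ttll6 (0.50 ± 0.22, adjusted p = 0.059) and Calcoco2 (-1.21 ± 0.58, adjusted p = 0.087) did not pass. Inside the Hoxb cluster, Mir10a (30.2 in GS, 28.1 in iPS lines, 0.11 ± 0.08, adjusted p = 0.29) did not pass either. Nor did Mir196a-1 (81.0 in GS, 67.25 in iPS lines, 0.27 ± 0.14, adjusted p = 0.10), and both had means under the background level. Whether the neighbours differed from the Hoxb genes was not tested. Beside the Hoxd cluster, Mtx2 was higher (0.76 ± 0.09) and Lnpk lower (-0.98 ± 0.13).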

How the data were processed

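The values the authors deposited are linear intensities for 28856 probe sets on 46 whole-transcript arrays. For their scaling, the sources used here give no method, and mm9 is the assembly in the submitters' processing notes. Values ran from 16 to 27420. Probe sets with 1 symbol (21789) were kept, and those with several (1621) or none (5446) left out.

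Log2 was taken with no offset and the 2 cultures of each line were averaged. One linear model by lmFit and eBayes of limma (version 3.58.1, R 4.3.3, 15 residual and 2.71 prior degrees of freedom) held all 23 lines and all 19938 genes, with Benjamini-Hochberg adjustment within each comparison over all genes at 0.05. Log2 differences are the first group minus the second with limma's SE, and a called gene passed this test. Where the dimmer group was under the background level of 161.1, a fold is given as at least the brighter group's mean divided by it. The labels do not say that cultures or lines came from separate animals, so p-values measure the spread between lines only.

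The fibroblast score is the mean log2 intensity of 25 marker genes. Slopes on it were fitted between lines with group as a factor, and on the difference between the 2 cultures of a line. Members with values are those above background in at least 1 line and called at least once, and the others are given by count. The members, the gene lists and the comparisons were chosen with earlier results of these data known. Alternatives were quantile normalization, median centring, leaving out the 40% dimmest genes, averaging probe sets, a random block for line (through statmod 1.5.0), the culture number as a block, the score as a covariate, a score from its 12 matrix or 13 other markers, fits of 2 groups and leaving out each line. Leaving out culture 1 of Oct4 mGS 1 was chosen after the data were seen. Over 253 pairs of lines, culture differences correlated at -0.44 to 0.39 with a median of 0.0025, and 72 were over 0.1. Culture numbers thus did not pair all lines, but some lines shared culture differences, and the source of this was not tested. The scripts were tested on simulated data. Tables and figures used pandas 2.3.3, numpy 2.4.6 and matplotlib 3.10.9 under Python 3.11.15.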

Additional observations from a re-analysis of the deposited data

Results flagged for a closer look

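In 10 of 216 combinations of a named Hox gene and a group, the highest or lowest array stood apart from the others of its group (Dixon's criterion), where chance gives about 1 in 20.

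Culture 1 of Oct4 mGS 1 accounted for 4 of them. It read Hoxb2 at 384.8 (160.5 to 197 in the other 5 arrays), Hoxa6 at 258.1 (166.5 to 187.7), Hoxd10 at 238.6 (135 to 156.6) and Hoxb4 at 63.02 (106.4 to 120.6). The median of this array was 264.8, the highest of all. Without it, the Hoxd10 difference of Oct4 mGS from iPS was 0.35 (adjusted p = 0.10), the Hoxc8 difference 1.55 (adjusted p = 0.056), that from GS 1.28 (adjusted p = 0.056), and the Hoxb1 difference 0.33 (adjusted p = 0.060).

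Culture 2 of Sox2 mGS 3 read Hoxb2 at 523.1, against 182.4 to 237.2 in the other 5 arrays of Sox2 mGS. Culture 1 of iPS 2 read Hoxa4 at 346 (303.3 to 318.2 in the others), and culture 2 of GS 3 read Hoxa7 at 286 (335.6 to 359.5). Culture 2 of Oct4 mGS 3 read Hoxa9 at 389.6 (361.2 to 371.2). Culture 2 of mGS 1 read Hoxb5 at 84.53 (78.27 to 78.9 in 3 arrays), and culture 1 of Dnmt mGS 2 read Hoxb6 at 145 (170.2 to 185.3). The spontaneous mGS group has only 4 arrays.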

How the results depend on the processing

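Of 3759 values of called Hox genes under the alternatives, 3458 kept their call, 301 lost it and 0 reversed. The Hoxb results in GS kept all 1710. Averaging probe sets was among the alternatives but left the values of Hox genes as they were, since each had a single probe set. The share of all genes called was not counted in the alternative fits. The counts of called Hox genes in this section are thus not set against all genes.

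With the 40% dimmest genes left out, only 12 Hox genes remained, and calls were 10 across the groups, 7 for GS against iPS, 7 for mGS, 9 for Dnmt mGS, 7 for Dmrt mGS, 8 for Sox2 mGS and 7 for Oct4 mGS against GS, 0 for Dmrt mGS, 4 for Sox2 mGS and 1 for Oct4 mGS against iPS, and 3 and 0 for the slopes between lines and between cultures. Dmrt mGS against iPS (1 call) had 0 under quantile normalization, 0 with centred arrays and 0 with only the 2 groups compared, and 2 with the line as a random block, with the score as a covariate or without culture 1 of Oct4 mGS 1. Dnmt mGS against iPS (0 calls) had 2 with the line as a random block, 3 with the score, 1 with only the 2 groups and 1 without that culture. Sox2 mGS against iPS (13 calls) had 7 with centred arrays, 5 with the score and 26 with only the 2 groups. Oct4 mGS against iPS (8 calls) had 0 under quantile normalization, 1 with centred arrays and 4 with only the 2 groups. The slope between cultures (1 call) had 0 under quantile normalization and with centred arrays. The causes were not tested, except that fewer genes or lines enter some of these fits.

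With the culture number as a replicate block, Dnmt mGS and Dmrt mGS against iPS had 2 calls each and the slope between lines 12. The block moved no other count by over 1.5 times.

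With each line left out in turn, calls ranged from 19 to 27 across the groups, 14 to 19 for GS against iPS, 11 to 15 for mGS, 13 to 15 for Dnmt mGS, 13 to 16 for Dmrt mGS, 13 to 18 for Sox2 mGS and 12 to 16 for Oct4 mGS against GS. They stayed at 0 for mGS against iPS and ranged from 0 to 2 for iPS against ES, 0 to 2 for Dnmt mGS, 0 to 3 for Dmrt mGS, 8 to 18 for Sox2 mGS and 0 to 11 for Oct4 mGS against iPS, from 5 to 12 for the slope between lines and from 0 to 1 for that between cultures.

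The number of lines limits the precision, and a gene near the background level can change more than its intensity shows. Probes cannot tell Hox transcripts of the germline or pluripotent cells from those of feeder cells.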
